A study of Rattus norvegicus with 6 samples.

Results

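The microRNA-21 gene (Mir21) gives rise to 2 mature strands, miR-21-5p and miR-21-3p, which were chosen by name from the 764 mature rat miRNAs of the count table and are described here in the vesicles of diabetic and control rats. Both strands were found in the table, and both passed the filter on low counts that left 362 miRNAs for testing. The vesicles were small extracellular vesicles, membrane-bound particles released by cells, purified from plasma (2 ml) of wild-type male rats of the outbred Sprague-Dawley strain, 6 to 8 weeks old when obtained. The 3 diabetic libraries came from rats injected with streptozotocin at 65 mg/kg, which destroys pancreatic beta cells and so removes insulin, and were labelled as 8-week diabetic. Diabetes was defined as a fasting glucose above 11.1 mmol/L. The 3 control libraries came from rats labelled only as control, and the labels used here give no vehicle injection for them. RNA of 18 to 30 nucleotides was sequenced. Nothing in the labels says which cells released the vesicles, or whether a library stands for 1 animal, so that p-values measure the spread between these libraries.

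An miRNA gene is transcribed as a hairpin, which is cut to a short duplex of its 5p and 3p arms. One arm, the guide, is usually retained by an Argonaute protein and represses messenger RNAs that match its seed (bases 2 to 8), while the other, the passenger, is mostly degraded. miR-21-5p is the guide of its hairpin. It is known to be raised in fibrotic heart, kidney and lung, and it represses inhibitors of growth factor signalling, among them SPRY1 and SMAD7. miR-21-3p, the passenger, is known from rat cardiac fibroblasts, which export it in vesicles to heart muscle cells, where it represses Sorbs2 and Pdlim5.

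The arms differ in sequence from each other and from the other miRNAs compared, although how reads were assigned is not given here. The sequences are those of RefSeq for the GRCr8 build, in which the hairpin lies at chr10:71902600-71902691 on the minus strand next to Vmp1. In the mature strands the capitals mark the seed, and in the hairpin they mark the 2 arms, the 5p arm first.
rno-miR-21-5p: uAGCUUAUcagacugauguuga
rno-miR-21-3p: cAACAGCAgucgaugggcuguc
Mir21 hairpin: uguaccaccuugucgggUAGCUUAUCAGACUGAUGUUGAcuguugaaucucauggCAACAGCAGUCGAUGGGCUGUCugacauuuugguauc
The seeds AGCUUAU and AACAGCA differ, so that the arms address different sites in messenger RNAs, with AUAAGCU and UGCUGUU as the complementary letters. Each arm has 22 bases, and 19 bases of each arm paired with the other arm in the predicted fold of the hairpin. Among the 689 listed miRNAs with a sequence in the RefSeq table, 0 others had the seed of either arm. The closest other mature sequence lay 7 edits (substituted, inserted or deleted bases) from miR-21-5p and 8 edits from miR-21-3p, so no listed miRNA in that table is a near copy of either.

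miR-21-5p was an abundant vesicle miRNA in all 6 libraries, and miR-21-3p was scarce in all 6. Counts of miR-21-5p were 53915, 67898 and 63322 in diabetic replicates 1, 2 and 3, and 36904, 22499 and 22926 in control replicates 1, 2 and 3. It ranked 24, 23 and 25 among all listed miRNAs in the diabetic libraries and 27, 30 and 29 in the control libraries. Counts of miR-21-3p were 4, 5 and 21 in diabetic replicates 1, 2 and 3, and 9, 9 and 18 in control replicates 1, 2 and 3. It ranked 418, 402 and 316 in the diabetic libraries and 359, 349 and 293 in the control libraries. Library totals ran from 6254077 to 8930730 counts, so that by counting error alone a miRNA with 0 counts could still have stood at up to 0.336 CPM in the deepest library and 0.48 CPM in the shallowest. CPM is the count divided by the library's total and multiplied by 1e+06.

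As a share of all miRNA counts, miR-21-5p was 2.11 times as high in diabetic as in control vesicles. It made up 0.72%, 0.894% and 0.753% of counts in diabetic replicates 1, 2 and 3, against 0.413%, 0.36% and 0.351% in control replicates 1, 2 and 3. The lowest diabetic library lay well above the highest control library. The means were 0.789% ± 0.0921 in diabetic and 0.375% ± 0.0338 in control libraries (SD, n = 3 each), and exact permutation of the libraries (two-sided) gave p = 0.1, the smallest that 3 against 3 allow. Such a separation was common on this scale: 32.6% of the 362 tested miRNAs had every diabetic share above every control share, and 3.59% had the opposite. On the share scale the whole table leaned towards diabetes, with a median log2 fold change of 0.61 over the 362 miRNAs. In vesicle RNA, more vesicles from one cell type and more copies in each vesicle cannot be told apart.

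**Figure D1:**
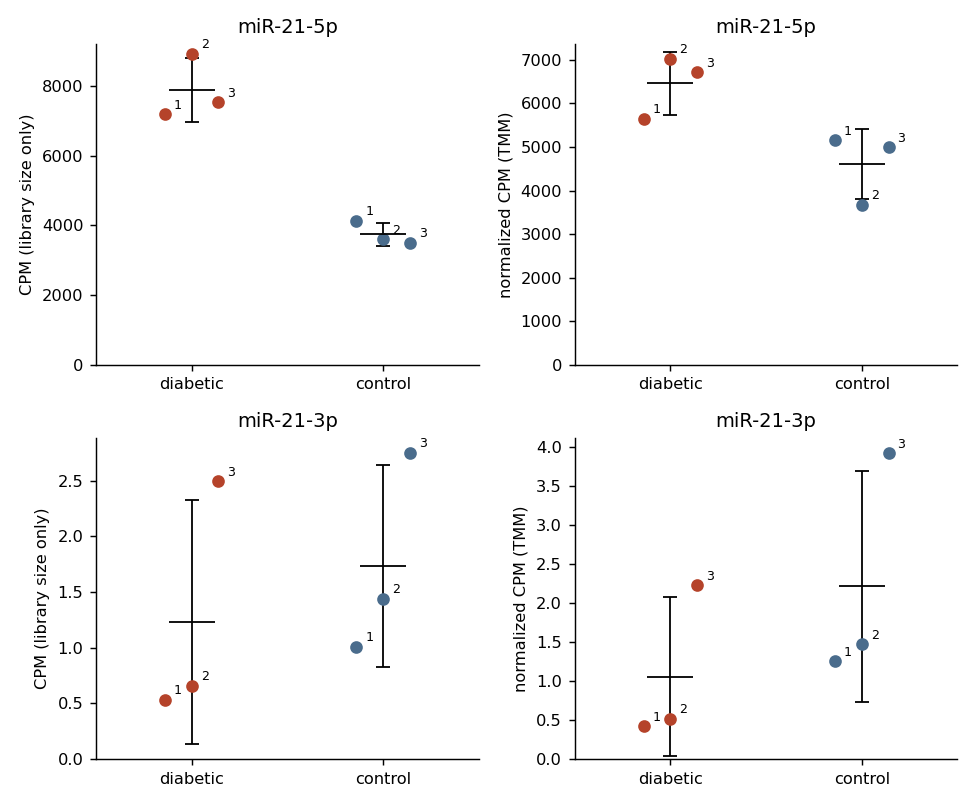
CPM (left) and TMM-normalized CPM (right) of miR-21-5p (top) and miR-21-3p (bottom) in the diabetic and control libraries; points are libraries numbered by replicate, and bars are the mean and SD of 3. The miR-21-5p groups do not overlap on either scale and lie closer on the right, whereas the miR-21-3p groups overlap on both.

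After scaling by the trimmed mean of M values (TMM), which sets the bulk of miRNAs level between libraries, the difference in miR-21-5p was smaller. Normalized CPM were 5650, 7032 and 6718 in diabetic replicates 1, 2 and 3, and 5151, 3679 and 4994 in control replicates 1, 2 and 3. The groups still did not overlap, but diabetic replicate 1 stood only a little above control replicate 1. The means were 6467 ± 724 in diabetic and 4608 ± 808 in control libraries (SD, n = 3 each), a ratio of 1.40. On this scale 13.3% of tested miRNAs had every diabetic library above every control library, and 14.6% had the opposite.

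miR-21-5p did not pass the test of diabetic against control. Its log2 fold change was 0.49 (SE 0.33, 95% interval -0.23 to 1.21) in edgeR's quasi-likelihood fit of the 6 libraries. The unadjusted p was 0.163 by edgeR, and the adjusted p (Benjamini-Hochberg over the 362 miRNAs) was 0.379. The interval spans a level from 0.851 to 2.31 times that of control. Of all 362 miRNAs, 1.66% passed the threshold of 0.05 on the adjusted p, 2 of them higher (0.552%) and 4 lower (1.1%), and 105 had a log2 fold change above that of miR-21-5p. The value depended on the scaling: it was 1.07 with library size only and 0.21 with upper quartile factors, where the median of all miRNAs moved to 0.61 and -0.28 against 0.02 with TMM. With library size only edgeR gave an adjusted p of 0.0543, just outside the threshold that 12.4% of miRNAs passed as higher on that scale. In the authors' deposited table the log2 fold change of miR-21-5p is 1.07 with a p of 0.0166 and a false discovery rate of 0.106.

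miR-21-3p did not pass the test either, and its fitted change pointed the other way. Normalized CPM were 0.419, 0.518 and 2.23 in diabetic replicates 1, 2 and 3, and 1.26, 1.47 and 3.92 in control replicates 1, 2 and 3. Diabetic replicate 3 lay above control replicates 1 and 2, so the groups overlapped, and replicate 3 was the highest of each group. The means were 1.06 ± 1.02 in diabetic and 2.22 ± 1.48 in control libraries (SD, n = 3 each). Before scaling, its CPM were 0.534, 0.658 and 2.5 in diabetic and 1.01, 1.44 and 2.75 in control replicates 1, 2 and 3, and exact permutation of these shares gave p = 0.5. The log2 fold change was -1.03 (SE 0.81, 95% interval -2.81 to 0.76), and edgeR gave an adjusted p of 0.456. It became -2.11 without diabetic replicate 3 and -0.38 without control replicate 3, where edgeR gave adjusted p of 0.195 and 0.85, and -0.46 with library size only.

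Counting error alone was wide for miR-21-3p. The exact 95% Poisson intervals of its CPM ran from 0.146 to 1.37 for the 4 counts of diabetic replicate 1 and from 0.461 to 1.91 for the 9 counts of control replicate 1, so these intervals overlapped. Those of the highest libraries of each group were 1.55 to 3.82 in diabetic replicate 3 and 1.63 to 4.35 in control replicate 3. It passed the filter through 1 diabetic and 2 control libraries at or above 1.33 CPM, the 3 libraries that the filter asks for. In the authors' deposited table the log2 fold change of miR-21-3p is -0.49 with a false discovery rate of 0.859.

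**Figure D2:**
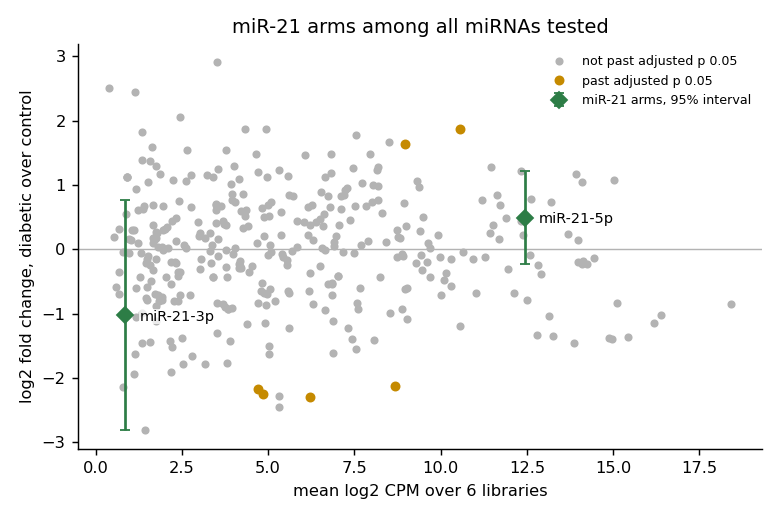
Log2 fold change, diabetic over control, against mean log2 CPM for the 362 miRNAs tested; green diamonds are the miR-21 arms with their 95% intervals, and orange points passed the threshold on the adjusted p. Both intervals cross 0, and the interval of miR-21-3p, at the low end of the abundance axis, is the wider.

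The ratio of the arms compares guide and passenger within a library and needs no scaling between libraries. For each count of miR-21-3p there were 13479, 13580 and 3015 counts of miR-21-5p in diabetic replicates 1, 2 and 3, and 4100, 2500 and 1274 in control replicates 1, 2 and 3. Diabetic replicates 1 and 2 stood apart from the other 4 libraries, while diabetic replicate 3 fell below control replicate 1. On a log2 scale, with 0.5 added to each count, the ratio averaged 12.89 ± 1.18 in diabetic and 11.14 ± 0.83 in control libraries (SD, n = 3 each). The difference of 1.75 gave p = 0.2 in a two-sided exact permutation test over libraries, whose smallest possible p is 0.1.

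The share of miR-21-3p among the reads of both arms was small everywhere. It was 0.00742% (exact Clopper-Pearson 95% interval 0.00202 to 0.019), 0.00736% (0.00239 to 0.0172) and 0.0332% (0.0205 to 0.0507) in diabetic replicates 1, 2 and 3. In control replicates 1, 2 and 3 it was 0.0244% (0.0111 to 0.0463), 0.04% (0.0183 to 0.0759) and 0.0785% (0.0465 to 0.124). The interval of control replicate 1 overlapped those of all 3 diabetic libraries.

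Arm ratios varied between libraries for many hairpins. Of 95 hairpins with both arms tested, miR-21 ranked 3 for excess of 5p over 3p. Its difference between diabetic and control libraries was the 7th highest, and it ranked 16 by size in either direction. The differences of all 95 had a median of 0.02, with quartiles at -0.70 and 0.95 on the log2 scale. For 36 of the 95 hairpins, or 37.9%, the ratios of the groups did not overlap, and miR-21 was not among them.

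**Figure D3:**
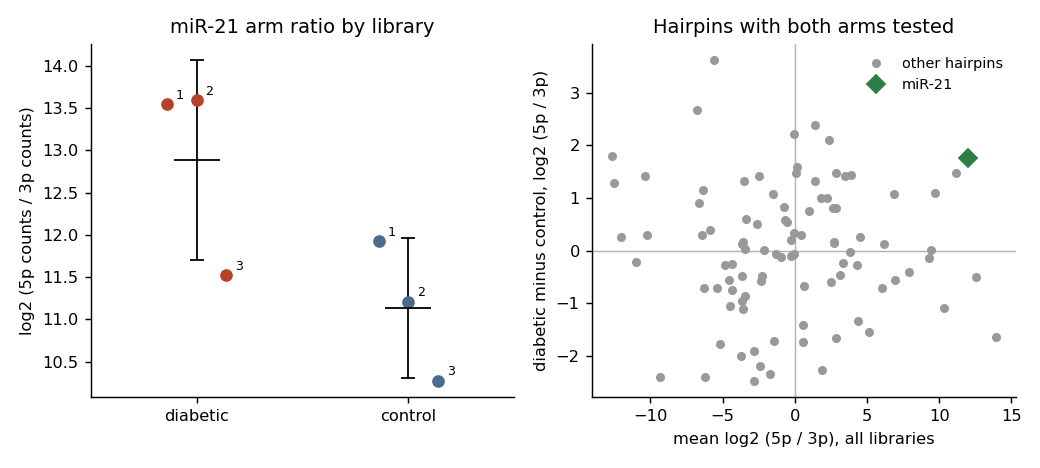
Left, log2 ratio of miR-21-5p to miR-21-3p counts by library, with the mean and SD of 3 libraries per group. Right, for 95 hairpins with both arms tested, the difference in that ratio between diabetic and control libraries against its mean over all 6 libraries; miR-21 lies far to the 5p side and at 1.75 on the difference axis.

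The levels of the arms did not move together over the libraries, which held only 4 to 21 counts of miR-21-3p. For each arm the 5 closest miRNAs are given, picked from all 362 tested. With so many candidates over 6 libraries, high values of r come from the picking alone, so they serve only as a description. Pearson's r between the arms was -0.29 over the 6 libraries on log2 normalized CPM, a description over libraries that share their scaling factors and their groups. The miRNAs most like miR-21-5p were miR-34c-5p (r = 0.96), miR-466b-5p (0.93), miR-148a-5p (0.92), miR-144-5p (0.92) and miR-872-5p (0.91). With library size only, 0 of these 5 stayed among the closest 5. miR-34c-5p, a miRNA induced by the tumour suppressor p53, averaged 7.94 normalized CPM in diabetic and 3.8 in control libraries, and like miR-21-5p it was lowest in control replicate 2. miR-144-5p, an erythroid miRNA, averaged 23.4 normalized CPM in diabetic and 16.3 in control libraries. Of the 5 erythrocyte miRNAs described below, 3 had log2 fold changes below 0, among them miR-451-5p at -1.33.

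The miRNAs most like miR-21-3p were let-7a-5p (r = 0.98), miR-330-3p (0.96), miR-504 (0.92), miR-760-3p (0.91) and miR-128-3p (0.90), and 4 of these 5 stayed among the closest with library size only. They shared with miR-21-3p the higher level of diabetic replicate 3 against the other diabetic libraries. miR-128-3p, enriched in neurons, stood at 9543, 11278 and 52989 normalized CPM in diabetic replicates 1, 2 and 3, and at 66543, 44486 and 78358 in control replicates 1, 2 and 3. let-7a-5p, a repressor of growth genes, stood at 1238, 1291 and 2277 normalized CPM in the diabetic and at 2137, 2143 and 3464 in the control libraries, in order of replicate. Of these 10 miRNAs, 0 passed the quasi-likelihood test of edgeR (adjusted p from 0.137 to 0.488), and 3 had an unadjusted p under 0.05, against 22.7% of all 362 miRNAs. DESeq2 called miR-504 alone, and edgeR's exact test and limma-voom 0, against 11.6%, 8.29% and 1.1% of all 362. With library size only the quasi-likelihood test called miR-34c-5p and miR-872-5p, where it called 12.4% of all as higher. With the replicate number as a block it called miR-504, miR-128-3p, miR-760-3p and miR-872-5p, where it called 57 of all 362. let-7a-5p and miR-466b-5p belong to families of near-identical sequences and may share reads with their relatives.

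Other miRNAs linked to fibrosis gave no common direction beside miR-21-5p. Of 14 miRNAs named as profibrotic from background knowledge, 9 were tested, 6 with a log2 fold change above 0 and 3 below, with a median of 0.10 against 0.02 over all 362 miRNAs. Of 19 named as antifibrotic, all were tested, 11 above 0 and 8 below, with a median of 0.19. With upper quartile factors the medians became -0.22 and -0.08, and with library size only 0.71 and 0.80. In edgeR's quasi-likelihood test 0 members of either list passed. At an unadjusted p under 0.05 there were 3 higher and 1 lower profibrotic and 2 higher and 1 lower antifibrotic miRNAs, or 4 of 9 and 3 of 19, against 22.7% of all tested miRNAs. DESeq2 called 3 profibrotic and 1 antifibrotic, where it called 11.6% of all 362. The exact test of edgeR called 3 and 0 (8.29% of all), and limma-voom 0 and 0 (1.1% of all). With library size only the quasi-likelihood test called 3 and 3, where it called 12.4% of all as higher. All of these list members were higher in diabetic libraries.

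The profibrotic members with the smallest p, a choice that favours large changes, had larger fitted changes than miR-21-5p. miR-217-5p, a pancreatic acinar miRNA, stood at 14.8, 38.1 and 5.3 normalized CPM in diabetic and 2.09, 3.43 and 2.18 in control replicates 1, 2 and 3. Its log2 fold change of 2.91 (SE 0.68) became 1.95 without diabetic replicate 2, the highest library. miR-199a-5p, a fibroblast miRNA, stood at 77.3, 49.8 and 14.7 normalized CPM in diabetic replicates 1, 2 and 3 and at 14.1, 17.7 and 6.97 in control replicates 1, 2 and 3, so that diabetic replicate 3 fell among the controls. miR-145-5p, a smooth muscle miRNA, stood at 863, 454 and 346 normalized CPM in diabetic and 253, 117 and 151 in control libraries, without overlap. By edgeR the adjusted p was 0.0647 for the first of these, 0.112 for miR-199a-5p and 0.0853 for miR-145-5p. The log2 fold change of miR-21-5p, at 0.49, was exceeded by 3 of the 9 tested profibrotic miRNAs, and the lowest of the 9 stood at -1.38.

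Among the antifibrotic members, those with the smallest p lay on both sides of 0. miR-378a-3p, encoded in an intron of Ppargc1b, stood at 22674, 18118 and 23035 normalized CPM in diabetic and 5359, 10618 and 12449 in control libraries, in order of replicate. miR-19b-3p, of the miR-17-92 cluster, stood at 161, 114 and 140 normalized CPM in diabetic and 76.6, 68 and 45.7 in control libraries. miR-29c-3p, which represses collagen messenger RNAs, stood at 8.8, 12.2 and 11 normalized CPM in diabetic and 19, 24.4 and 16.8 in control libraries. In each of these 3 the groups did not overlap, which was so for 4 antifibrotic miRNAs in the higher and 2 in the lower direction of 19 tested, against 13.3% and 14.6% of all 362. By edgeR the log2 fold changes were 1.17 (SE 0.39), 1.12 (SE 0.36) and -0.91 (SE 0.36) in the same order, and the adjusted p were 0.121, 0.112 and 0.176.

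**Figure D4:**
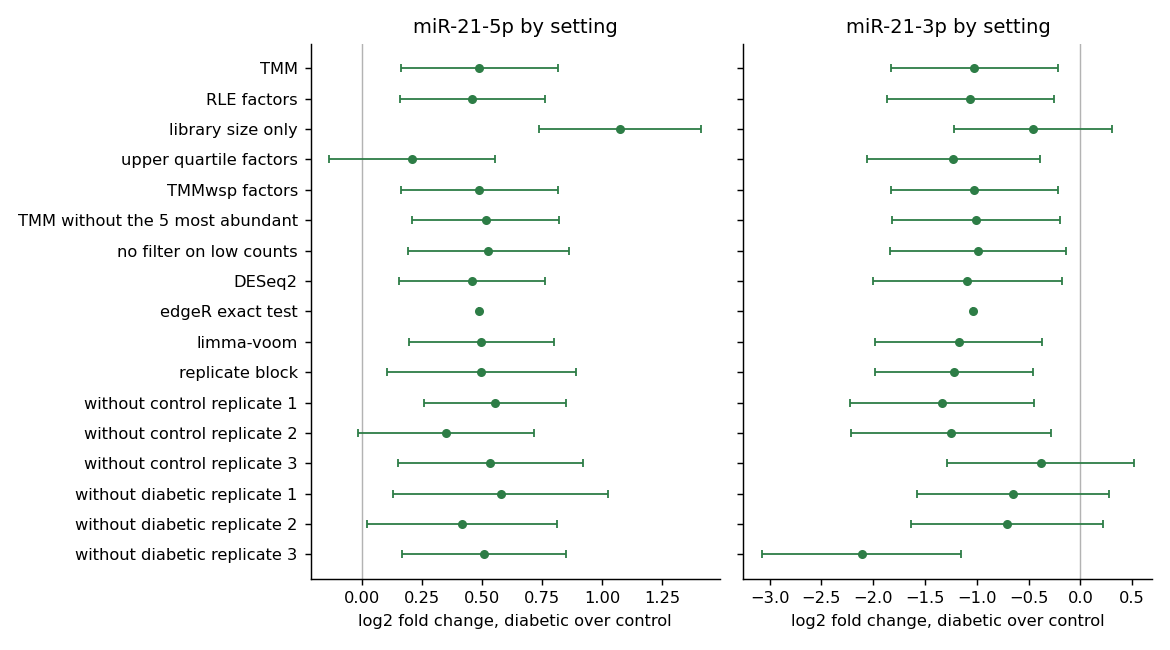
Log2 fold change, diabetic over control, of miR-21-5p (left) and miR-21-3p (right) under each scaling, test and set of libraries; bars are 1 SE, which edgeR's exact test does not give. miR-21-5p stays above 0 from 0.21 to 1.07, and miR-21-3p stays below 0 from -2.11 to -0.38.

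Marker miRNAs of the cells that could feed plasma vesicles moved with miR-21-5p in part. The summed share of 4 fibroblast and smooth muscle miRNAs was 3.79% to 6.9% in diabetic and 1.54% to 2.12% in control libraries. That of 5 platelet miRNAs was 4.54% to 5.27% in diabetic and 2.87% to 3.69% in control libraries, and that of 5 leukocyte miRNAs 0.85% to 1.17% and 0.267% to 0.779%. All 3 sums were without overlap, as was miR-21-5p on the share scale. There 32.6% of single miRNAs were separated in this direction, and no such rate was computed for sums of miRNAs. The fibroblast and smooth muscle sum was mostly miR-143-3p, at 6.06%, 6.82% and 3.74% in diabetic and 2.09%, 1.59% and 1.52% in control replicates 1, 2 and 3. After TMM scaling 2 of 5 platelet, 0 of 5 leukocyte and 2 of 4 fibroblast and smooth muscle miRNAs were higher without overlap. Of all 362 miRNAs, 13.3% were higher in diabetic libraries without overlap on that scale, and 14.6% were lower. Log2 fold changes were below 0 for 2, 1 and 1 members of these 3 lists. The 2 of the platelet list were miR-191a-5p and miR-24-3p, which made up most of the platelet sum, and the other 3 were above 0. In order of replicate, miR-191a-5p stood at 15063, 10484 and 19402 normalized CPM in diabetic and 19470, 16113 and 15908 in control libraries. miR-24-3p stood at 17641, 16536 and 14484 in diabetic and 21464, 16165 and 19710 in control libraries. The sums of 5 erythrocyte miRNAs, 5.12% to 8.84% in diabetic and 7.02% to 18.3% in control libraries, and of 4 liver miRNAs, 5.78% to 8.59% and 3.15% to 21%, overlapped. After TMM scaling 1 erythrocyte miRNA was higher and 2 were lower without overlap, and 3 of the 5 had log2 fold changes below 0. All 4 liver miRNAs had log2 fold changes below 0, and 1 of them was lower without overlap. Every one of these 23 markers had counts in all 6 libraries. The quasi-likelihood test of edgeR called 0 of them, with 9 at an unadjusted p under 0.05, against 22.7% of all 362 miRNAs. DESeq2 called 6, edgeR's exact test 4 and limma-voom 0, against 11.6%, 8.29% and 1.1% of all. The marker lists share members with the fibrosis lists. miR-145-5p, miR-199a-5p, miR-214-3p and the liver miR-192-5p are also on the profibrotic list, and miR-24-3p is on the antifibrotic list. The calls of miR-145-5p and miR-199a-5p by DESeq2 and the exact test are therefore counted under both.

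The hepatocyte and neutrophil markers varied widely within the control group. The liver miRNA miR-122-5p took 4.35%, 6.63% and 5.78% of counts in diabetic and 2.1%, 4.75% and 16.2% in control replicates 1, 2 and 3. The neutrophil miR-223-3p took 0.138%, 0.0797% and 0.0959% in diabetic and 0.0683%, 0.0188% and 0.0133% in control replicates 1, 2 and 3. The log2 fold changes were 0.78 (SE 0.33) for miR-126a-3p of platelets and endothelium, 1.07 (SE 0.36) for miR-143-3p of smooth muscle and -1.33 (SE 0.40) for the erythroid miR-451-5p. Their part in the level of miR-21-5p was not tested.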

How the data were processed

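Small RNA of plasma vesicles was sequenced on an Illumina HiSeq 2500, per the labels' protocols. The submitters' processing notes name rn6 as the build. Aligner, counter and miRNA annotation are not given in the sources used here. The authors deposited whole-number counts per mature miRNA, which were identical in all 4584 cells of both tables. The deposited CPM equalled counts over library totals within 0.006 in all 4584. The authors also deposited a log2 fold change, made from group means of CPM, and p-values, for which the file name points to edgeR and the series text to DEGseq.

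filterByExpr (minimum count 10, minimum total 15) kept 362 of 764 miRNAs. Counts were scaled by TMM and tested with edgeR 4.0.16 (quasi-likelihood, R 4.3.3, two-sided, Benjamini-Hochberg, threshold 0.05), checked on simulated data. TMM factors were 1.27, 1.27 and 1.12 in diabetic and 0.802, 0.978 and 0.702 in control replicates 1, 2 and 3. Standard errors are the size of the fold change over the square root of F. Alternatives used limma 3.58.1 and DESeq2 1.42.0. Shares and arm ratios were compared by exact permutation over libraries. The hairpin was folded with RNAfold 2.7.2. Mature sequences matched 689 of 764 names. No library was a copy of another. Intervals cover counting error only, since PCR duplicates cannot be told from molecules.

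The members, the lists and the tests were chosen with earlier results of these data known. Beside the members, miRNAs were named if among the 5 with the highest correlation to an arm, the 3 with the smallest p of a fibrosis list, or a defining cell marker.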

Additional observations from a re-analysis of the deposited data

How the results depend on the processing

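Both miR-21 arms kept their direction and stayed outside the threshold under all 16 alternatives of scaling, filter, test and libraries. The share of miR-21-5p and the arm ratio kept their direction under all 9 alternatives each, with differences of 0.362 to 0.664 percentage points and of 1.32 to 2.43 on the log2 scale. The difference in the share of miR-21-3p, diabetic minus control, was -5.03e-05 percentage points. This difference turned to 6.88e-07 without control replicate 3, and over all libraries left out in turn it ran from -0.000114 to 6.88e-07. The number of miRNAs called was 49 with library size only, 2 with upper quartile factors, 42 with DESeq2 and 30 with edgeR's exact test, against 6, and 0 to 49 with single libraries left out: 49 without control replicate 1, 22 without diabetic replicate 3 and 0 without any 1 of the other 4, where edgeR's quasi-likelihood test gave 57 to 59 at an unadjusted p under 0.05. Of those called, 91.8% were higher with library size only, 50% with RLE factors and 0% with upper quartile factors, against 33.3% with TMM. With the replicate number as a replicate block 57 miRNAs were called, neither arm among them (adjusted p 0.427 and 0.293 for miR-21-5p and miR-21-3p in edgeR's quasi-likelihood test). Same-numbered libraries correlated at 0.28, 0.0012 and 0.25 in their deviations from the group means. Diabetic replicates 1 and 3 correlated best with their own number, and diabetic replicate 2 did not. The labels state no link behind the number, and so few correlations cannot settle whether there is one. Among the 21 other named miRNAs, the log2 fold change of miR-122-5p, -1.15, became 0.27 without control replicate 3. It ran from -1.61 to 0.27 over single libraries left out. That was the 1 reversal in 333 alternative fits of these 21 miRNAs. In 290 of the fits the outcome stayed the same, and in 42 a miRNA passed the threshold that it had not passed in the main fit. In edgeR's quasi-likelihood test miR-504 had an adjusted p of 0.000139 with the replicate block, and miR-223-3p 0.00626 without control replicate 1. The cause of these shifts was not tested. The TMMwsp scaling was chosen after seeing the data. With 4 to 21 counts per library, depth limits what can be said of miR-21-3p.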
